A study of Rattus norvegicus with 8 samples.

Results

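Junctional adhesion molecules are immunoglobulin superfamily proteins of the cell surface that hold neighboring cells together at tight junctions and that leukocytes use when they cross a vessel wall. Jam2 (JAM-B) and Jam3 (JAM-C) bind each other across cells, F11r (JAM-A) binds its own kind and the leukocyte integrin LFA-1, and Esam is a related protein of endothelial cells and platelets. The ICAM, VCAM and PECAM proteins are immunoglobulin family receptors that leukocytes meet on endothelium and on other leukocytes. Glucocorticoids bind the glucocorticoid receptor, which switches target genes on and off and sets off apoptosis of immature thymocytes.

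The 8 members were Jam2, Jam3, F11r, Esam, Pecam1, Icam1, Icam2 and Vcam1, measured with 9 of the 41012 probes on the array. Probes were taken by the gene name that the array gives, which found 7 members. The remaining one, Pecam1, is listed under an older name, Pecam, and was found by its RefSeq accession, NM_031591. Jam2 was chosen by its change between the groups described here, so its values are a description and carry no test. The other 7 members were chosen as members of the family or of related adhesion receptor groups, with earlier results of these data known.

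The cells were primary thymocytes of adrenalectomized male Sprague-Dawley rats, with the thymi of 3 animals pooled per preparation. Control cultures received no hormone and Dex cultures received 100 nM of the synthetic glucocorticoid dexamethasone, and both were cultured for 6 h. Each group had 4 arrays, 1-color Agilent rat arrays with 60-base probes. The study's design states 3 biological replicates, while 4 arrays per group were deposited, and whether each array is a separate preparation is not given in the sources used here, so that p-values measure the spread between these arrays.

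The scanner software flagged 24908 to 34472 probes per array as well above background. The arrays Control 1, Dex 1 and Dex 2 had the fewest of them, 28665, 26471 and 24908. Within the Dex group, Dex 1 and Dex 2 correlated with each other at 0.984 over all probes and Dex 3 with Dex 4 at 0.990, whereas correlations between these pairs ran from 0.919 to 0.943. Slide and group were largely tied, since Control 2, 3 and 4 lay on one slide, Dex 1, 2 and 4 on another, and only Control 1 and Dex 3 shared a slide. Tsc22d3 (GILZ), a known glucocorticoid target, had a log2 fold change of 3.59. Markers of double positive thymocytes, the most abundant cells of the thymus, were bright in both groups, with a mean log2 level over the list of 12.60 to 12.74 in Control and 12.20 to 12.49 in Dex, which did not overlap.

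The first 30 bases of the probes that read Jam2, and of those for the members whose Control and Dex arrays did not overlap, are shown 5′ to 3′ to identify what was measured. No part is in capitals, because the whole stretch is the probe. Positions of the full probes are those that the array gives on rat build rn3, and their place within exons or UTRs was not analyzed here.

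Jam2 downstream probe, chr11:24314961-24315020, plus strand: gtccaatggtatttggttcttttgtgatat
Jam2 upstream probe, chr11:24312724-24312783, plus strand: tgaccttttatctgtctctaaaagcaattc
Pecam1 probe, chr10:96072087-96072146, minus strand: ggtggatgaagttacgatctccatcctgtc
Icam2 probe, chr10:95789422-95789481, minus strand: ctcatgggaaatggatagaattcctagtct
Vcam1 probe, chr2:212240449-212240508, minus strand: acggggacgtgtttcttcatcaggatcttg

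The 2 Jam2 probes lie 2237 bases apart and share no run of bases longer than 5. They are therefore different readings of the gene's transcripts. Of their 60 bases, G and C make up 35.0% in the downstream probe and 45.0% in the upstream probe.

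Jam2 was low in Control thymocytes and far higher on every Dex array. Values are normalized log2 signals, on which a difference of 1 is a doubling. The downstream probe, which the array assigns to NM_001034004, read 5.80, 5.41, 5.16 and 5.73 on Control arrays 1 to 4. On Dex arrays 1 to 4 it read 9.93, 9.86, 9.74 and 9.49. The lowest Dex value exceeded the highest Control value by 3.69. The group means were 5.53 ± 0.30 in Control and 9.75 ± 0.19 in Dex (SD, n = 4 each), which is 18.7-fold, and the log2 fold change was 4.23 with a standard error of 0.20. By absolute log2 fold change this probe ranked 6 among all probes.

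The upstream Jam2 probe went the same way by a smaller amount. It read 6.37, 5.85, 6.14 and 6.10 in Control and 8.73, 8.66, 8.31 and 8.22 in Dex. The groups were again apart, by 1.85 between the closest arrays. Its means were 6.11 ± 0.21 and 8.48 ± 0.25 (SD, n = 4 each), which is 5.14-fold, and the log2 fold change was 2.36 with a standard error of 0.19. By absolute log2 fold change the upstream probe ranked 69 among all probes. The log2 fold change of the downstream probe was larger than that of the upstream probe by 1.87. Both probes were well above background on all 8 arrays, Control included.

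Between arrays with the same replicate number, 1 to 4, the downstream Jam2 probe differed by 4.13, 4.45, 4.58 and 3.76 on the log2 scale. The upstream probe differed by 2.35, 2.81, 2.17 and 2.12. On the slide that held both groups, Dex 3 exceeded Control 1 by 3.94 on the downstream and 1.93 on the upstream probe. Dex 1 and Dex 2, which stood apart from Dex 3 and Dex 4 over all probes, gave the highest Dex values of both Jam2 probes, yet the spread within Dex was small beside the distance from Control. Leaving out Control 1, Dex 1 and Dex 2 left log2 fold changes of 4.18 and 2.23.

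**Figure D1:**
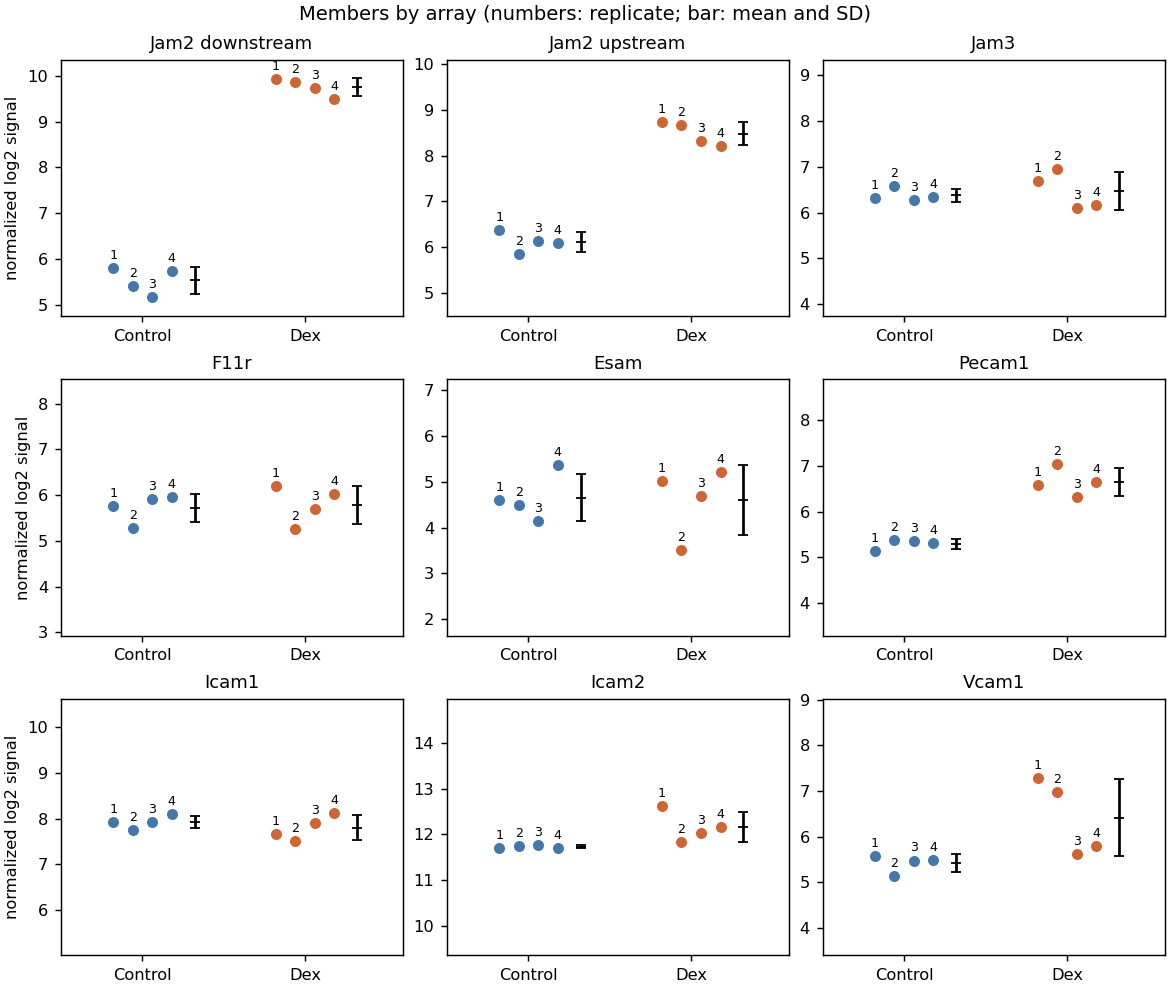
Normalized log2 signal of the 9 member probes on each array, with Control in blue and Dex in orange, replicate numbers above the points, and the mean and SD of the 4 arrays as a black bar. Every panel spans the same number of log2 units. Jam2 separates the groups by 3.69 and 1.85 log2 units between the closest arrays and Pecam1 by 0.94, whereas Vcam1 is high on Dex 1 and Dex 2 and close to Control on Dex 3 and Dex 4.

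The size of the Jam2 change differed most under another background setting. With normexp background correction and an added offset of 50, which were changed together, in place of the processed signal, the downstream probe gave a log2 fold change of 2.74 and the upstream probe 1.51. Over all alternatives the downstream probe ranged from 2.74 to 4.32 and the upstream probe from 1.51 to 2.45.

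The genes whose pattern over the 8 arrays lay closest to the downstream Jam2 probe were Itgae, Ddit4, Angptl4, Tsc22d3 and Mlana, out of 13542 genes compared. Likeness was the root mean square difference of log2 values after each gene was centered on its own mean over the 8 arrays, so it reflects the size of the change as well as its shape. The difference was 0.37 for Itgae, the alpha chain of the integrin that binds E-cadherin, and 0.37 for Ddit4, an inhibitor of mTOR signaling. It was 0.41 for Angptl4, a secreted inhibitor of lipoprotein lipase, 0.44 for Tsc22d3 and 0.45 for Mlana, a melanosome protein. The upstream Jam2 probe itself was farther away, at 0.95. The array samples are shared by all of these genes, so the likeness is a description.

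**Figure D2:**
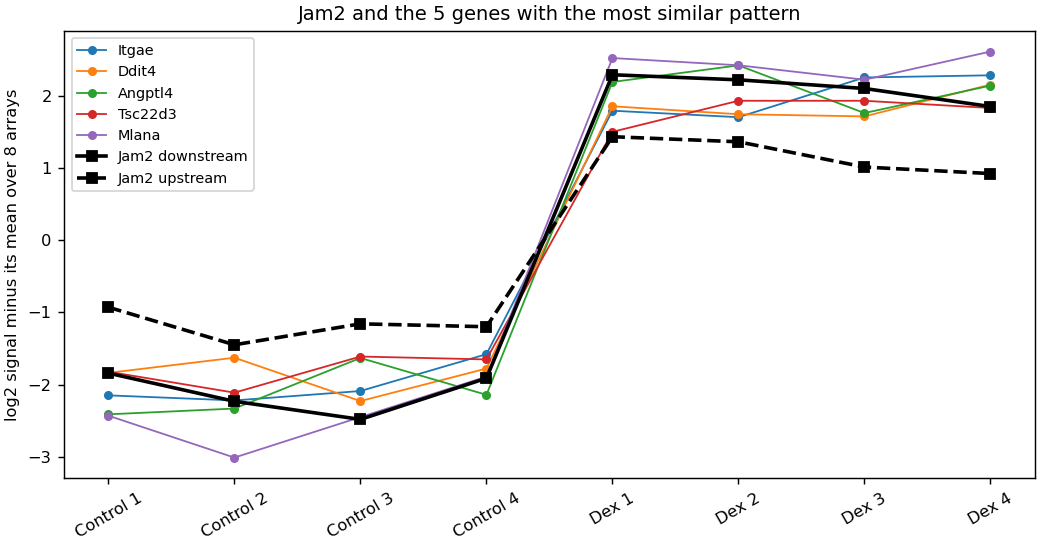
Log2 signal of both Jam2 probes (black squares) and of the 5 most similar genes (colored points) on each array, each minus its own mean over the 8 arrays. All lines lie below 0 on the Control arrays and above 0 on the Dex arrays, and the upstream Jam2 probe spans the smallest range.

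Probes close to Jam2 on rn3 were read beside it. Within 500000 bases of the Jam2 probes, a distance set after Jam2's values were known, the array held 10 probes with 7 other names. Their log2 fold changes ran from -0.49 to 1.04 with a median of -0.22, and limma called 0 of the 10, the lowest adjusted p being 0.516. The signal to noise statistic also called 0, and no probe of the 10 had an unadjusted p under 0.05. Over all probes these shares were 0.778% for limma, 6.79% for the signal to noise statistic and 10.6% for the unadjusted p, so that counts of 0 among 10 probes are close to the background. Control and Dex values overlapped for each of them, while they did not for 9.11% of all probes. The nearest annotated gene was Atp5pf, a subunit of the mitochondrial ATP synthase on the minus strand, which read 13.19 in Control and 12.92 in Dex. Gabpa, an ETS transcription factor, gave -0.21 and -0.28 with its 2 probes, and App, the amyloid precursor protein gene, gave -0.03. The highest value, 1.04, belonged to the expressed sequence tag AI044404, whose probe lies on the opposite strand between the Jam2 probes and was not well above background on any array.

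**Figure D3:**
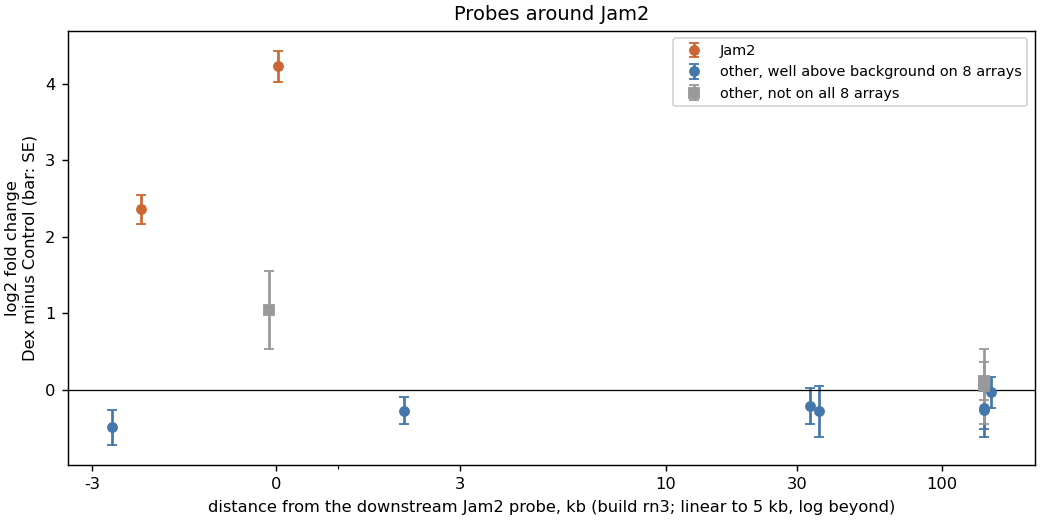
Log2 fold change, Dex minus Control, of the Jam2 probes (orange) and of the other 10 probes within 500000 bases, against distance from the downstream Jam2 probe in kb. Bars are standard errors, and gray squares mark probes that were not well above background on all 8 arrays. The Jam2 probes stand at 4.23 and 2.36, and the others lie between -0.49 and 1.04.

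Of the 7 members other than Jam2, limma called 1, Pecam1, and 0 once replicate number was added as a block (Pecam1 adjusted p = 0.108). Over all probes 0.778% were called, 319 of 41012, of which 231 were higher in Dex. Among named genes, each with its brightest probe, the share was 1.04%. Of the 9 member probes, 5 had all Dex arrays above all Control arrays, namely both Jam2 probes, Pecam1, Icam2 and Vcam1. Over all probes 4.60% did so. The Jam2 probes are among the 5 by their choice, and nothing is read from that count for them.

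The closest relatives of Jam2 did not pass the test. Jam3, the heterophilic partner of Jam2, read 6.31, 6.59, 6.27 and 6.34 in Control and 6.68, 6.96, 6.11 and 6.16 in Dex. The Dex arrays fell on both sides of the Control arrays, with replicates 1 and 2 above them and replicates 3 and 4 below. The log2 fold change was 0.10 with a standard error of 0.23, a 95% interval of -0.42 to 0.62 and a limma adjusted p of 0.911.

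F11r read 5.76, 5.28, 5.91 and 5.95 in Control and 6.20, 5.26, 5.69 and 6.02 in Dex. The groups overlapped over nearly their whole range. Its log2 fold change was 0.07 with a 95% interval of -0.52 to 0.66 (limma adjusted p = 0.950).

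Esam varied more between arrays than Jam3 and F11r. It read 4.61, 4.49, 4.15 and 5.37 in Control and 5.02, 3.51, 4.70 and 5.21 in Dex, where Dex 2 was not well above background. Its log2 fold change was -0.05 with a 95% interval of -1.0 to 0.91 (limma adjusted p = 0.979), an interval too wide to leave out a change of nearly 1 log2 unit either way. The difference between the change of Jam2 and those of these relatives was not tested, because Jam2 was chosen by its change.

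Pecam1 (CD31), which binds its own kind on platelets, leukocytes and endothelium, rose. It read 5.13, 5.38, 5.35 and 5.32 in Control and 6.58, 7.05, 6.32 and 6.65 in Dex. All 4 Dex arrays lay above all 4 Control arrays, by 0.94 between the closest. The means were 5.30 ± 0.11 and 6.65 ± 0.30 (SD, n = 4 each), which is 2.56-fold. The log2 fold change was 1.36 with a standard error of 0.19 and a limma adjusted p of 0.0208. The pairs differed by 1.45, 1.68, 0.97 and 1.33, and Dex 3 exceeded Control 1 on their common slide by 1.19.

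The Pecam1 log2 fold change was above 0 in all 17 alternatives, from 0.59 with normexp correction to 1.47, but the call was kept in 8 of them. Beside the replicate block, with signals scaled to the 75th percentile the adjusted p was 0.0621. Leaving out single arrays gave adjusted p from 0.0259 to 0.0971, and the call was kept without Dex 2 and without Dex 3 and was lost without Control 1, 2, 3 or 4 or Dex 1 or 4. Without Control 1, Dex 1 and Dex 2 the log2 fold change was 1.13 (limma adjusted p = 0.0364). That alternative was chosen after seeing the data and rests on Control 2, 3 and 4 and Dex 3 and 4. It called 11.4% of all probes, so its p-value adds little for Pecam1.

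Vcam1, a ligand of integrin alpha4 beta1, was uneven among the Dex arrays. It read 5.58, 5.14, 5.48 and 5.50 in Control and 7.29, 6.97, 5.62 and 5.80 in Dex. Dex 1 and Dex 2 stood well above the rest, whereas Dex 3 and Dex 4 exceeded the highest Control array by little, 0.04 for the closest. The mean difference was 0.99 with a standard error of 0.39 (limma adjusted p = 0.407). By pairs it was 1.71, 1.83, 0.14 and 0.30. On the common slide it was 0.04, and without Control 1, Dex 1 and Dex 2 it was 0.34 (limma adjusted p = 0.258). Dex 1 and Dex 2 also had the fewest probes well above background, and the part of this in the Vcam1 values was not tested.

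Icam2, a ligand of LFA-1 found on lymphocytes and endothelium, was at 11.71, 11.75, 11.77 and 11.71 in Control. In Dex it was at 12.62, 11.84, 12.04 and 12.16. The Control arrays were very close together, and Dex 1 was the highest of the Dex arrays while Dex 2 lay 0.07 above the highest Control array. The log2 fold change was 0.43 with a 95% interval of -0.01 to 0.87 (limma adjusted p = 0.480). The signal to noise statistic of the study's methods, at an unadjusted threshold, called Icam2 together with Pecam1 and none of the other 5, beside 6.79% of all probes.

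Icam1, the inducible ligand of LFA-1, was read by a probe printed 10 times on each array. It gave 7.92, 7.76, 7.93 and 8.10 in Control and 7.67, 7.51, 7.91 and 8.13 in Dex. The groups overlapped, with Dex 1 and Dex 2 below all Control arrays and Dex 4 above them. Its log2 fold change was -0.12 with a 95% interval of -0.54 to 0.30 (limma adjusted p = 0.867).

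**Figure D4:**
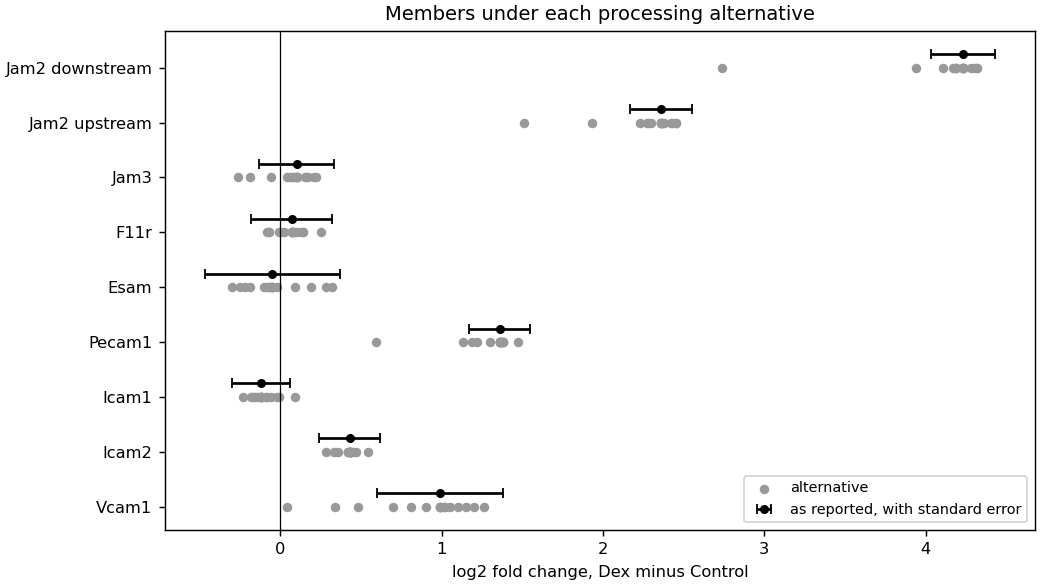
Log2 fold change, Dex minus Control, of each member probe as reported (black, with its standard error) and under each of the 17 processing alternatives (gray). Jam2 stays at or above 1.51 and Pecam1 at or above 0.59, while Jam3, F11r, Esam and Icam1 lie on both sides of 0 and Vcam1 spreads from 0.04 to 1.26.

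Promoters of 4 of the 8 members, Jam2, F11r, Icam1 and Vcam1, were matched by symbol in RefSeq on build GRCr8, as 250 bases before to 50 after the start that the promoter table uses. For Jam2 and Icam1 this start lies inside the outer bounds of the gene. They were searched on both strands for the glucocorticoid response element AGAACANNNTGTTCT, for the shorter site AGAACA, which the full element contains, and for the NF-kappaB motif. Of all 33469 promoters of this length, 5 held the full element (0.0149%), 20.7% the shorter site and 7.51% the NF-kappaB motif. None of the 4 member windows held either glucocorticoid motif, which says only that these letters do not occur within them. Jam2 and Vcam1 held an NF-kappaB motif, shown in capitals with 10 bases on each side, 5′ to 3′ on the gene's strand, where the Jam2 letters match the motif read on the opposite strand and the Vcam1 letters match it on both strands. They are shown because they are the only matches among the member windows.

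Jam2 promoter, GRCr8 chr11:37317478-37317507, plus strand: tttaaaagaaGGAACGTCCCagacccaggt
Vcam1 promoter, GRCr8 chr2:206742857-206742886, minus strand: tccccttgaaGGGATTTCCCtccgcctctc

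The Jam2 match starts 72 bases and the Vcam1 match 93 bases before the start used for its window. The outer bounds of Jam2 are 37316287 to 37366517, so its match lies within them. The Jam2 window is 67.3% G and C, Icam1 65.3%, F11r 62.7% and Vcam1 50.3%. A match is a description of the letters, and binding was not measured.

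The surroundings of the members in the cell were described with 4 lists, 82 genes on the array in all, 46 of them well above background on all 8 arrays. limma called 0 of the 82 at an adjusted p of 0.05, the signal to noise statistic called 8, and 11 had an unadjusted p under 0.05. Over all probes limma called 0.778% and the signal to noise statistic 6.79%, and 10.6% had an unadjusted p under 0.05. Without Control 1, Dex 1 and Dex 2 limma called 16 of the 82 (19.5%, beside 11.4% of all probes), with a random slide block 6 (7.32%, beside 4.49%) and with normexp correction 3 (3.66%, beside 2.23%). Of the 82 genes, 43 had a higher mean in Dex, and the median log2 fold change was 0.05, beside 0.01 over all named genes. Groups did not overlap for 9 of the 82, 11%, beside 9.11% of all probes.

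Other immunoglobulin adhesion proteins related to the JAMs were represented by 23 of 25 genes listed, 12 of them with a higher mean in Dex, and their median was 0.13. L1cam, a neural adhesion molecule, stood at -1.05 (limma adjusted p = 0.108). Cxadr, the coxsackievirus and adenovirus receptor of tight junctions, had 0.98 (limma adjusted p = 0.664). These genes and those named in the next sentences were picked after their values were seen, from the lists or as known partners of the members.

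Scaffold, polarity and signaling proteins that bind the JAM tails or act beside those that do were represented by 26 of 27 genes. Of these, 9 had a higher mean in Dex, and the median was -0.13. The mean level of this list was 7.10 to 7.23 on the Control arrays and 6.94 to 7.09 on the Dex arrays. Pard3, which binds the JAM tail directly, stood at -0.85 and its partner Pard6a at -0.71, with limma adjusted p-values of 0.802 and 0.249. Pard3 read 8.56, 8.97, 10.31 and 9.73 in Control and 7.21, 6.56, 10.27 and 10.12 in Dex, so that Dex 1 and Dex 2 were low and Dex 3 and Dex 4 lay within the Control range. Tjp1 (ZO-1) had 0.29 (limma adjusted p = 0.866) and was well above background on 5 of the 8 arrays. Rap1a and Rap1b, the small GTPases downstream of F11r, had 0.08 and -0.01.

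Membrane proteins of tight and adherens junctions were represented by 19 of 21 genes, 16 of them with a higher mean in Dex, with a median of 0.32. Cdh1, which encodes E-cadherin, had the lowest value of this list, -1.18 (limma adjusted p = 0.107), from 9.04 in Control to 7.86 in Dex. Cldn10, a claudin, had 0.92 (limma adjusted p = 0.215). Ocln, the gene of occludin, is listed on the array under the name Tpmt and was found by accession, with a value of -0.14. Of the 19 genes, 10 were well above background on all arrays.

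Integrins and selectins that bind the members or share their tasks were represented by 14 of 18 genes, 6 with a higher mean in Dex, with a median of -0.19. Itgal and Itgb2, the chains of LFA-1, which binds F11r, Icam1 and Icam2, had log2 fold changes of -0.60 and -0.18. Itgb1, the beta chain of the Vcam1 receptor, had -0.42, and Itgam, whose product binds Jam3, had 0.15. The limma adjusted p-values of Itgal, Itgb2, Itgb1 and Itgam were 0.475, 0.760, 0.744 and 0.963. Over this list the level on Dex 1 and Dex 2 averaged 0.75 above that on Dex 3 and Dex 4. Itgam read 5.36, 6.23, 2.73 and 3.66 on Dex 1 to 4, on both sides of its Control values of 3.92 to 4.82. Itgb1 read 7.75, 7.92, 6.57 and 6.56 on them, beside 7.35 to 7.89 in Control. Spn (CD43) had -0.77 (limma adjusted p = 0.108).

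Several members are also known from endothelium, platelets and macrophages, so markers of the other cell types that a thymus suspension can hold were read beside them. Fewer cells of a type and less RNA per cell cannot be told apart in such bulk samples. Of 14 endothelial markers limma called 0, the signal to noise statistic called 1 (6.79% over all probes), and 2 had an unadjusted p under 0.05 (10.6% over all probes). The mean level of the list ran from 5.49 to 5.63 in Control and from 5.46 to 5.83 in Dex. The endothelial marker Cdh5 stood at 0.53 and Vwf at -0.53 on the log2 fold change scale, with limma adjusted p-values of 0.604 and 0.302, and Tek was not well above background on any array. On Dex 1 and Dex 2, where Vcam1 was high, the endothelial list averaged 0.27 lower than on Dex 3 and Dex 4 and the platelet list 0.77 lower. The macrophage list was 0.05, the B cell list 0.63 and the erythroid list 1.68 higher on them, and the part of these cells in the Vcam1 values was not tested.

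The list level of 11 macrophage markers ran from 6.65 to 6.99 in Control and from 7.08 to 7.38 in Dex and did not overlap. Without Mrc1 the other 10 overlapped, at 6.96 to 7.32 and 7.16 to 7.44. Mrc1 had the largest change of the list, so leaving it out was bound to bring the levels closer. All Dex arrays lay above all Control arrays for 2 of the 11, Mrc1 and C1qc, beside 4.60% of all probes. limma called 0 of the 11, the signal to noise statistic called 1, and 3 had an unadjusted p under 0.05, beside the same 6.79% and 10.6% over all probes. Of the 11, 6 had a higher and 5 a lower mean in Dex. Mrc1, the mannose receptor, had the largest log2 fold change, 2.12 (limma adjusted p = 0.0870), and the complement genes C1qa, C1qb and C1qc had 0.72, 0.84 and 0.97. The lower ones were Cd14 at -0.77, Cd163 at -0.24, Cd36 at -0.15, Adgre1 at -0.15 and Cd68 at -0.12. The part of macrophage RNA in the Jam2 and Pecam1 values was not tested.

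The 5 platelet markers averaged 5.63 to 5.88 in Control and 5.05 to 6.13 in Dex, and the 3 erythroid markers 5.88 to 7.78 and 5.86 to 8.76. The 8 thymic epithelial markers on the array averaged 6.80 to 6.93 and 6.78 to 7.22, whereas the defining markers Foxn1 and Psmb11 were not found on it by name or accession. The 5 B cell markers averaged 4.57 to 5.17 and 4.41 to 5.56, and the 10 fibroblast markers 6.18 to 6.32 and 6.25 to 6.65. Of all these markers limma called 1, the fibroblast marker Fn1, which encodes fibronectin and fell by 2.13 on the log2 scale (limma adjusted p = 0.0484), beside 0.778% of all probes called. The Fn1 call was kept with the replicate block (adjusted p = 0.0418) and lost without any 1 of the 8 arrays (adjusted p from 0.0651 to 0.173). Fn1 (13.63 in Control and 11.50 in Dex) and Thy1 (11.27 and 11.18) were the brightest genes of the fibroblast list. Which cells gave the Fn1 and Thy1 signals was not tested. Of the 10 fibroblast markers 7 had a higher mean in Dex, beside 51.3% of all named genes, and their median was 0.58. Pdgfrb was among the 7, at 1.72 (limma adjusted p = 0.160). Only 5 of the 10 were well above background on all 8 arrays. Dcn, Lum and Pdgfra, which are among the 7, were so on no array, and Pdgfrb on 2 Control and 3 Dex arrays. The levels of these 5 lists overlapped between Control and Dex.

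**Figure D5:**
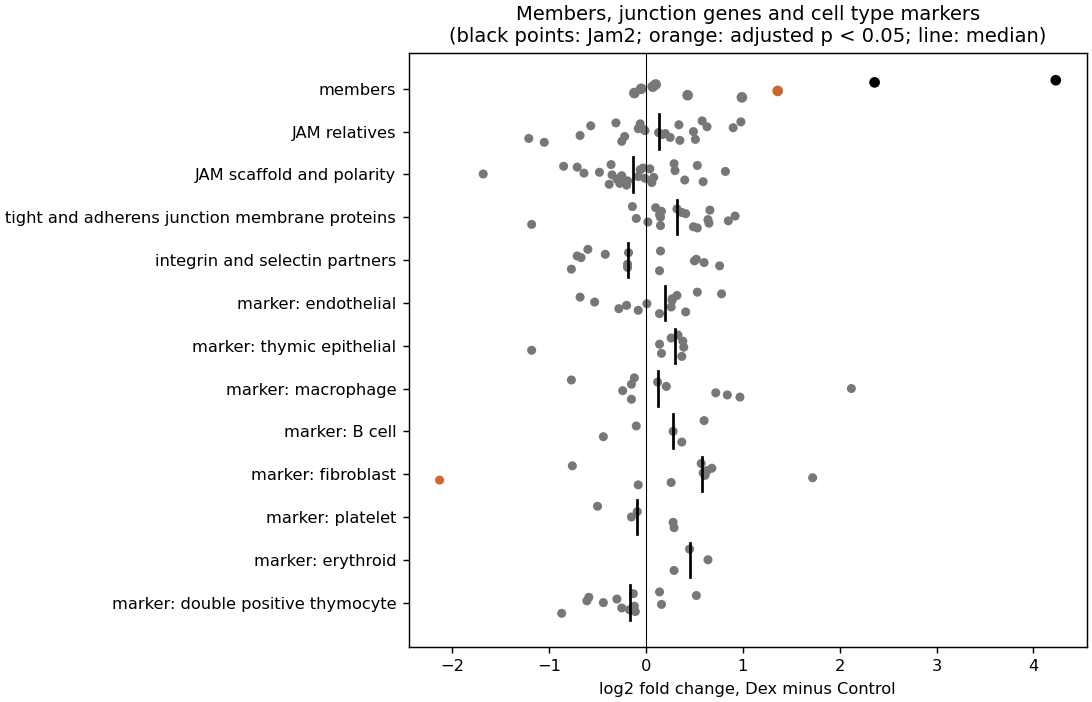
Log2 fold change, Dex minus Control, of the member probes and of each gene in the 4 junction lists and 8 marker lists, 1 point per gene and a black line at each list's median. Jam2 is in black because it carries no test, and orange marks a limma adjusted p under 0.05, which only Pecam1 and Fn1 reached. The 82 junction genes lie around a median of 0.05.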

How the data were processed

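The authors made Cy3-labeled cRNA from total RNA, hybridized it to 1-color Agilent arrays and extracted intensity per spot with Feature Extraction, which subtracts background. The deposited scanner output holds these intensity values, with flags, and refers probes to build rn3. Their own log2 values, deposited after quantile normalization and median polish, differed from the recomputed values by a median of at most 0.00158.

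Control spots and outliers were left out, the processed signal was quantile normalized and summarized per probe by median polish on the log2 scale. limma (version 3.58.1, R version 4.3.3) compared Dex with Control on all 8 arrays, two-sided, with Benjamini-Hochberg adjustment over 41012 probes at 0.05. The brightest probe stood for a list gene. The signal to noise statistic was tested against its values over all 70 assignments of arrays, pooled over probes (a choice made here), one-sided, with thresholds of p 0.01 and fold 1.2. The procedure was also run on simulated data with independent noise on each array. Those data had no replicate or slide structure, so nothing is read from them for the calls. Arrays of the same number deviated together, at correlations of 0.397, 0.129, 0.550 and 0.184, so arrays of 1 number were counted as pairs. The reported fit has no block, so its p-values and intervals do not use these pairs. A blocked fit by replicate is an alternative, given where it changes a call of a named gene. It lowered the probes called from 319 to 81. Members and lists were chosen with earlier results of these data known. All members were named, with the 5 genes most like Jam2 and any called junction genes, of which there were none. The number of arrays limits the precision. Alternatives are given in the closing section.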

Additional observations from a re-analysis of the deposited data

How the results depend on the processing

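The probes called numbered 319 and went to 166 with 75th percentile scaling, 915 with normexp correction (offset 50), 562 without dim probes, 81 with the replicate block, 1 with slide as a fixed block, 1840 with slide as a random block (correlation within slides -0.236), 2784 by the signal to noise statistic and 4671 without the 3 arrays with the fewest probes well above background, an alternative chosen after seeing the data. Single arrays left out gave 127, 113, 117 and 96 without Control 1 to 4, and 134, 170, 249 and 161 without Dex 1 to 4. The cause of these shifts was not tested. Members called other than Jam2 numbered 0 with percentile scaling, the replicate block and the fixed slide block, 2 by the signal to noise statistic, and 0 to 1 with single arrays left out. Junction genes called numbered 3 with normexp correction, 1 without dim probes (1.22%, beside 1.97% of the probes tested) and 6 with the random slide block. They numbered 8 by the signal to noise statistic and 16 without the 3 arrays. The Jam2 log2 fold changes were 2.74 and 1.51 with normexp correction and 3.94 and 1.93 with the fixed slide block, which rests on Control 1 and Dex 3. With single arrays left out they ran from 4.11 to 4.32 and from 2.27 to 2.45. Pairing by replicate changed the call of no member but Pecam1. Signs turned, with no call, for F11r with percentile scaling (0 to 2 decimals) and the fixed slide block (-0.07), for Jam3 and Esam with the fixed slide block (-0.19 and 0.09), and without the 3 arrays for Jam3 (-0.26), Esam (0.28) and Icam1 (0.09). With single arrays left out, F11r ran from -0.08 to 0.25, Jam3 from -0.06 to 0.22 and Esam from -0.25 to 0.32. Probes near background have less certain fold changes, and slide and treatment cannot be told apart beyond the slide shared by Control 1 and Dex 3.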
